A study of Saccharomyces cerevisiae with 24 samples.

Results

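The libraries of technical replicate 2 (T2) were compared with those of technical replicate 1 (T1) across all genes of budding yeast, Saccharomyces cerevisiae. The libraries were chosen by their labels, which gave 16 of the 24 RNA-seq libraries of the series, 8 of T1 and 8 of T2. Each T2 library was paired with the T1 library of the same pipetting speed (50, 130, 210 or 290 µL/s) and the same biological replicate, which gave 8 pairs. All libraries came from strain W303, genotype WT, named W303-1B in the methods with mutant alleles of ura3, his3, leu2, can1, trp1 and ade2, and were grown in YPD at 30 °C without chemical treatment and pipetted by an OT-2 liquid handling robot. Each biological replicate was 1 liquid culture, called culture 1 and culture 2 here. What set T1 apart from T2, such as the time or order of sampling, is not given in the sources used here.

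Yeast adjusts much of its transcription to its surroundings, so repeated samples of a growing culture can differ in large groups of genes. The transcription factors Msn2 and Msn4 turn on the general stress response, and the heat shock factor Hsf1 turns on chaperone genes. Glucose holds back genes for the use of other carbon sources through the repressor Mig1 and through the absence of active Cat8 and Adr1, and good nitrogen sources hold back genes for the use of poor ones. Ribosomal protein and ribosome biogenesis genes usually follow the growth rate. Heme and oxygen control sterol genes and a family of hypoxic cell wall proteins.

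Expected counts, which are the estimated reads per gene, summed to between 11555761 and 14005430 per library in T1 and between 11759187 and 13716488 in T2. A gene was kept when its count averaged above 1, as 5142 genes did. Total count, mean fragment length and the share of the 50 most abundant genes did not differ between T1 and T2 beyond their spread over pairs (exact paired permutation test, two-sided, adjusted p = 0.961, 0.562 and 0.562, 8 pairs). Genes that mark α cells were high, with median TPM (a level scaled for gene length and library size) of 4121 for MF(ALPHA)1, which encodes α-factor, and 301 for STE3, the a-factor receptor, whereas the α-factor receptor gene STE2 was at 5.94 and the a-cell protease gene BAR1 at 4.61. The methods describe the strain as MATa, so the markers went against that mating type. None of the 11 mating-type and meiotic markers tested passed a false discovery rate of 0.01 in the edgeR tests given below. This holds for T2 against T1 and for the difference between cultures. The nearest was MF(ALPHA)2, with a log2 fold change of 0.18 (edgeR, false discovery rate 0.0113). STE3 rose in all 8 pairs, by 0.115 (0.0216), and BAR1 changed by −0.24 (0.0418). Within culture 2 alone, STE3 passed (0.15, false discovery rate 0.00202). MFA1, MFA2 and AGA2 were not analysed here.

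Differential expression analysis with edgeR's quasi-likelihood test, with the pair as a term, detected 107 genes at a false discovery rate (FDR) below 0.01. Of these, 37 were higher and 70 were lower in T2, which is 2.08% of the genes tested (0.72% higher and 1.36% lower). At an unadjusted p below 0.05 there were 1243 genes. The size of change had a median of 0.24 on the log2 scale and reached 0.78, and 3 genes passed 1.5-fold. Among the 107 genes, 103 moved the same way in all 8 pairs, which is favoured because the test chose them on these pairs. The T1 and T2 levels did not overlap for 9 of them, 6 higher and 3 lower in T2, while 0.214% of all genes tested were separated in each direction. The count depended on single pairs, with 42 genes without the 130 µL/s pair of culture 1, 45 without the 290 µL/s pair of culture 2, 52 and 56 without the 210 µL/s pairs of cultures 2 and 1, and 164 without the 290 µL/s pair of culture 1. Where the count was smaller, the rises were lost more than the falls. Without those pairs in the same order there were 6, 6, 8, 11 and 52 rises and 36, 39, 44, 45 and 112 falls, without the 130 µL/s pair of culture 2 there were 13 and 50, and with fragment length as a covariate 14 and 54. Each culture was grown once, so the p-values cover the spread among these libraries, which may be technical.

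Heat shock and general stress genes were the clearest group among the genes that fell. HSP26, a small heat shock protein that holds unfolded proteins, fell the most. Its level, as TMM-normalised counts scaled to library size (CPM), was 402 to 663 in T1 (median 573) and 230 to 439 in T2 (median 318). The highest T2 library, 290 µL/s of culture 1, stood above the lowest T1 library, 50 µL/s of culture 2, but every T2 library was below its own T1 partner. The log2 fold change was −0.78 ± 0.06 (SE, 8 pairs, edgeR FDR = 7.89e-05), a fall of 41.7%. HSP30, a plasma membrane stress protein that restrains the proton pump Pma1, was at 609 to 971 CPM in T1 (median 807) and 299 to 649 in T2 (median 481), and its log2 fold change was −0.76 ± 0.10 (FDR = 0.000987).

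SSA4, an Hsp70 chaperone that is little expressed without stress, was at 246 to 351 CPM in T1 (median 313) and 179 to 256 in T2 (median 211). HSP12, a membrane-binding stress protein and a standard Msn2/Msn4 target, was at 269 to 370 CPM in T1 (median 335) and 214 to 310 in T2 (median 243). All 8 pairs fell for both genes, although their T1 and T2 ranges overlapped slightly. The log2 fold changes were −0.52 ± 0.05 for SSA4 and −0.39 ± 0.04 for HSP12 (FDR = 0.000179 for each).

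**Figure D1:**
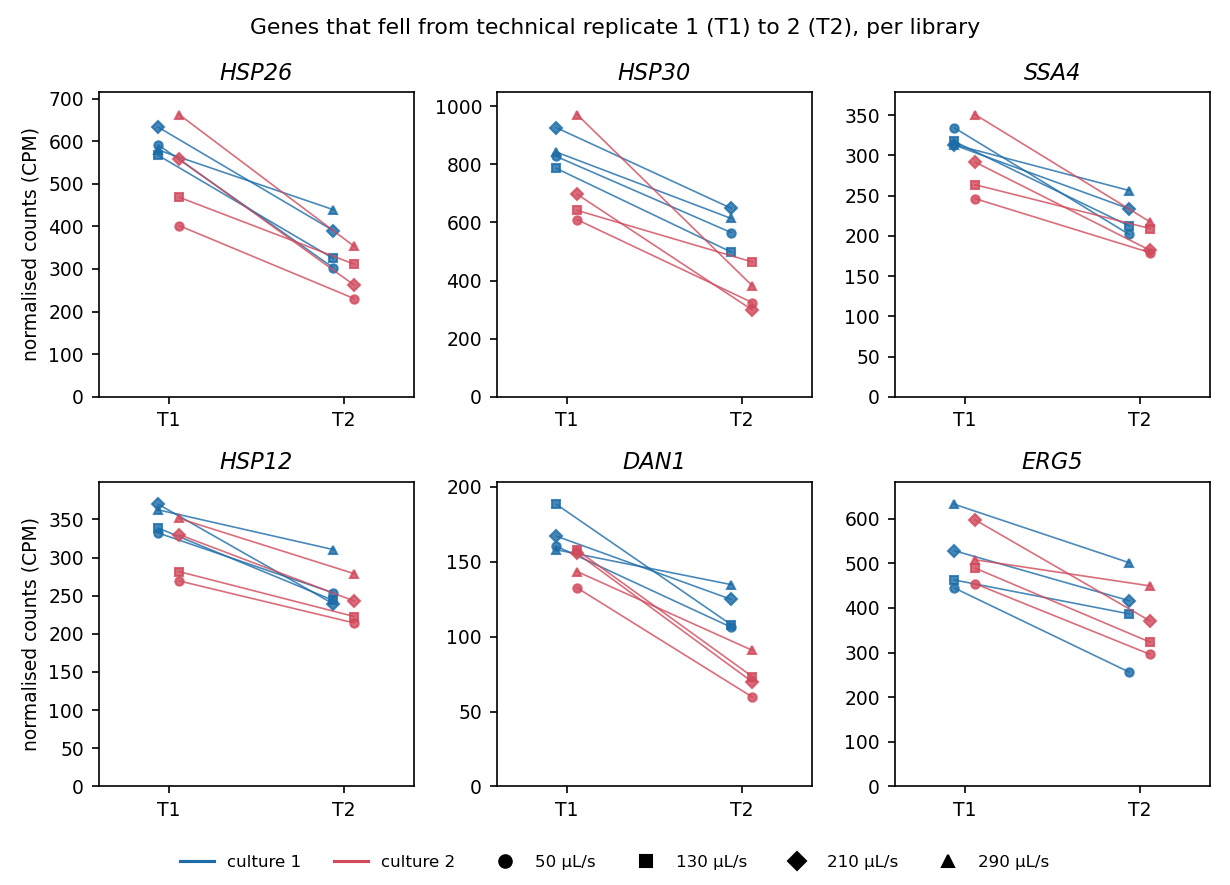
Normalised counts (CPM) of 6 genes in the 8 libraries of T1 and the 8 of T2, with a line for each pair; colour gives the culture and marker shape the pipetting speed. Every line falls, for HSP26 from between 402 and 663 CPM to between 230 and 439 CPM.

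Of 58 stress response genes tested, 18 fell and 0 rose (31.0% called, against 2.08% of all genes), and the median log2 fold change of the list was −0.21, against 0.00 for all genes. The list gave 11 falls without the 130 µL/s pair of culture 1 and likewise 11 without the 290 µL/s pair of culture 2. Beside HSP12, HSP26 and SSA4, the members with the lowest p included GND2, the minor form of 6-phosphogluconate dehydrogenase, which was at 62.7 to 102 CPM in T1 and 46.1 to 72.2 in T2 (log2 fold change −0.45 ± 0.04, FDR = 0.000179). SOL4, a 6-phosphogluconolactonase, changed by −0.49 ± 0.05 (FDR = 0.00021), and NQM1, a transaldolase, changed by −0.44 ± 0.07 (FDR = 0.00218). URA10, the minor isozyme of orotate phosphoribosyltransferase in pyrimidine synthesis, also fell in all 8 pairs, by 0.43 ± 0.04 on the log2 scale (FDR = 0.000179).

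The heat shock factor list had 27 genes tested, of which 6 fell and 1 rose (25.9% called, against 2.08% of all genes). The 6 falls became 2 without the 130 µL/s pair of culture 1 and 3 without the 290 µL/s pair of culture 2, and 4 without the 130 or 210 µL/s pair of culture 2. HSP104, the disaggregase that pulls proteins out of aggregates, went from a mean of 4568 CPM in T1 to 3536 CPM in T2 (log2 fold change −0.37 ± 0.06, FDR = 0.00217), and SSA3, another stress-induced Hsp70, changed by −0.27 ± 0.04 (FDR = 0.00362). The median of the list was −0.08, and 22 of its 27 genes had a log2 fold change below 0. The gene that rose, ERO1, which forms disulphide bonds in the endoplasmic reticulum, changed by 0.15 ± 0.03 (FDR = 0.00469) and did not pass in 7 of the 8 fits that left out a pair. HSP26, SSA3 and SSA4 belong to both the stress response and the heat shock factor list. SSA3 and SSA4 are similar in sequence, so their reads may have been divided between them by the estimation.

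Oxidative stress genes gave 5 falls and 0 rises of 38 tested (13.2% called, against 2.08% of all genes), with a median log2 fold change of −0.05. The 5 became 2 without the 130 µL/s pair of culture 1, the 290 µL/s pair of culture 2 or either 210 µL/s pair, and 3 without the 130 µL/s pair of culture 2. AHP1, a thiol peroxiredoxin, fell from a mean of 802 to 661 CPM (log2 fold change −0.28 ± 0.04, FDR = 0.000987), and it passed whichever pair was left out. PRX1, the mitochondrial peroxiredoxin (−0.21 ± 0.03), GRX1, a glutaredoxin (−0.22 ± 0.04), and GPX1, a glutathione peroxidase (−0.24 ± 0.04), also fell (FDR = 0.00196, 0.0034 and 0.00361). GRX1 and GPX1 did not pass in 5 and 4 of the 8 fits that left out a pair, and PRX1 passed in all 8. Among 19 glycolysis and fermentation genes, 2 fell and 0 rose. GLK1, the glucokinase, was at a mean of 2787 CPM in T1 and 2343 in T2 (−0.25 ± 0.04, FDR = 0.00281), and ADH4, an alcohol dehydrogenase regulated by zinc, changed by −0.23 ± 0.03 (FDR = 0.00196). GLK1 did not pass in 3 of the 8 fits that left out a pair, whereas ADH4 passed in all 8. The osmotic stress list gave 2 falls and 0 rises of 24 (8.33% called, against 2.08% of all genes), with a median of −0.01. GCY1, a glycerol dehydrogenase, changed by −0.27 ± 0.04 (FDR = 0.00196). CHA1 changed by −0.21 ± 0.03 (FDR = 0.00143), and was on the list although it is the catabolic serine and threonine deaminase. These 2 calls therefore do not describe osmotic stress genes as a group.

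Among the DAN and TIR genes, DAN1 and TIR4 fell and 0 rose, which is 2 of the 8 tested (25.0% called, against 2.08% of all genes). These hypoxic mannoproteins replace the aerobic wall proteins when oxygen is scarce. DAN1 was at 133 to 189 CPM in T1 (median 158) and 59.7 to 135 in T2 (median 98.6), with a log2 fold change of −0.76 ± 0.10 (FDR = 0.000987). It changed by −0.51 ± 0.08 in culture 1 and −1.01 ± 0.06 in culture 2, and the difference between the cultures did not pass the threshold (−0.50 ± 0.12, FDR = 0.0147). TIR4 was at 63.6 to 91.6 CPM in T1 and 37.7 to 70.9 in T2 (−0.53 ± 0.08, FDR = 0.00258). TIR4 did not pass without the 130 µL/s pair of culture 1 (edgeR FDR = 0.0125) or with all 24 libraries in the fit (FDR = 0.02), and DAN1 did not pass in the latter (FDR = 0.0237). The list median was −0.21, and 3 of the 8 genes had a change above 0. Within culture 1, 1 gene fell and 0 rose (12.5% called, against 2.66% of all genes). Within culture 2, 4 fell and 1 rose (62.5% called, against 10.4% of all genes). The change differed between the cultures for 1 member, and was higher in culture 2, so the list did not fall as a whole. Of the 16 genes on the list, 8 were in the tables analysed here. SPI1, a wall protein induced by weak acids and on entry into stationary phase, was at 74.5 to 105 CPM in T1 and 53.5 to 70.4 in T2, so its groups did not overlap (−0.55 ± 0.07, FDR = 0.000814).

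Of 30 ergosterol synthesis genes, 5 fell and 0 rose (16.7% called, against 2.08% of all genes), with a list median of −0.09 and 10 genes above 0. ERG5, the C-22 sterol desaturase of the late pathway, was at 445 to 633 CPM in T1 (median 499) and 256 to 501 in T2 (median 379), and its log2 fold change was −0.47 ± 0.06 (FDR = 0.00132). CYB5, the cytochrome b5 that supplies electrons to sterol and lipid enzymes, was at 89.6 to 144 CPM in T1 and 55.3 to 107 in T2 (−0.53 ± 0.06, FDR = 0.000814). Every T2 library was below its partner for both genes, and the ranges overlapped. With all 24 libraries in the fit neither passed (edgeR FDR = 0.229 for ERG5 and 0.275 for CYB5). ERG1, the squalene epoxidase, and ERG8, the phosphomevalonate kinase, changed by −0.24 ± 0.04 and −0.23 ± 0.04 (FDR = 0.00303 and 0.00249). They too failed with all 24 libraries (edgeR FDR = 0.469 for ERG1 and 0.279 for ERG8), ERG1 also without either 210 µL/s pair or the 130 µL/s pair of culture 2, and ERG8 without the 290 µL/s pair of culture 2. ANB1, the hypoxic form of translation factor eIF5A, changed by −0.25 ± 0.04 (FDR = 0.00543), and did not pass with all 24 libraries (FDR = 0.166) or in 6 of the 8 fits that left out a pair.

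Among the genes that rose, the largest change was in YDR124W, a gene of unknown function. It was at 11.3 to 15.1 CPM in T1 and 14.4 to 23.9 in T2, and its log2 fold change was 0.48 ± 0.07 (FDR = 0.00209). All other genes that rose changed by less than 0.26 on the log2 scale, and they included structural genes of the ribosome, chromatin and cell surface. RPL16A, a protein of the large ribosomal subunit, was at 504 to 662 CPM in T1 (median 618) and 641 to 784 in T2 (median 716). The ranges overlapped between 641 and 662 CPM, and the lowest T1 value, in the 290 µL/s library of culture 2, stood apart from the other T1 libraries. The log2 fold change was 0.24 ± 0.03 (FDR = 0.00137). RPL17A was at 751 to 866 CPM in T1 and 885 to 985 in T2, with no overlap (0.18 ± 0.03, FDR = 0.00137).

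The tables analysed here held 67 of the 137 cytosolic ribosomal protein genes on the list. Of these 67, 7 rose and 0 fell (10.4% called, against 2.08% of all genes). All 67 had a log2 fold change above 0, from 0.01 to 0.24 with a median of 0.13. The 7 became 2 without the 130 µL/s pair of culture 1, the 290 µL/s pair of culture 2 or either 210 µL/s pair, 3 without the 50 µL/s pair of culture 1 and 4 without the 130 µL/s pair of culture 2. RPL17B and RPS0A, of the large and the small subunit, rose by 0.16 ± 0.03 each (FDR = 0.00287 and 0.00362), and did not pass in 4 and 5 of the 8 fits that left out a pair, whereas RPL16A and RPL17A passed in all 8. Most ribosomal proteins are encoded by a pair of near-identical genes, and reads shared by such copies were divided between them, so values of single copies are uncertain. Together these 67 genes held 5.48 to 6.72% of all counts in T1 (median 6.43%) and 6.34 to 7.75% in T2 (median 6.79%). The share rose in 8 of 8 pairs, by 0.573 ± 0.423 percentage points (mean ± SD, exact paired permutation test, two-sided, p = 0.00781, the smallest that 8 pairs allow, adjusted p = 0.0312 over 4 measures). Without the 290 µL/s pair of culture 2, whose T1 library had the lowest share, the rise was 0.531 ± 0.439 points over 7 pairs (exact paired permutation test, p = 0.0156, the smallest that 7 pairs allow).

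**Figure D2:**
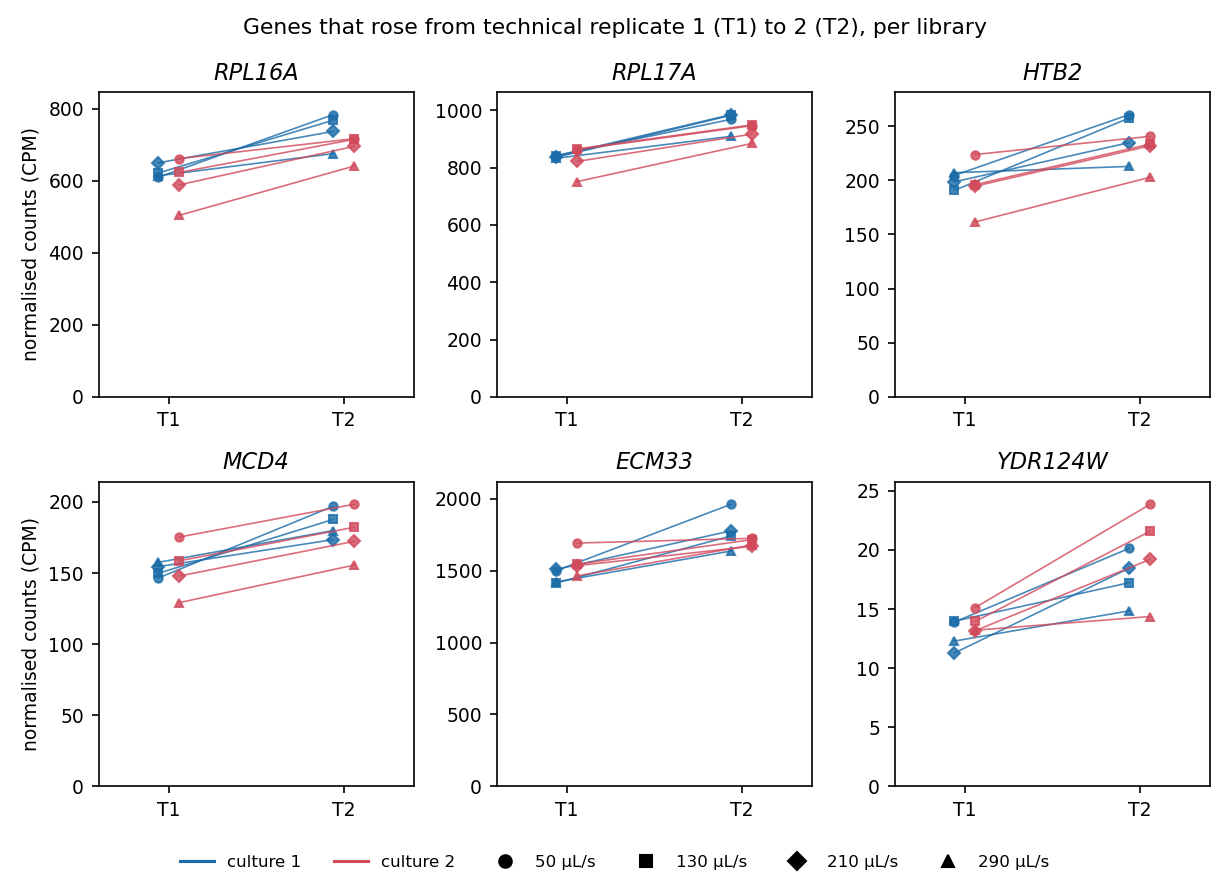
Normalised counts (CPM) of 6 genes in the 8 libraries of T1 and the 8 of T2, with a line for each pair; colour gives the culture and marker shape the pipetting speed. Every line rises, for RPL17A from between 751 and 866 CPM to between 885 and 985 CPM.

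Of 41 translation factor genes, 5 were called (12.2%, against 2.08% of all genes). The 4 that rose included NIP1, a subunit of initiation factor eIF3 (0.23 ± 0.03, FDR = 0.00228), TEF4, elongation factor 1Bγ (0.17 ± 0.03, FDR = 0.00478), and TIF3, initiation factor eIF4B (0.14 ± 0.03, FDR = 0.00599), and the 1 that fell was the hypoxic ANB1. The 4 rises became 0 without the 290 µL/s pair of culture 2, 1 without either 130 µL/s pair, either 210 µL/s pair or the 50 µL/s pair of culture 1, and 2 with fragment length as a covariate. Of 139 ribosome biogenesis genes, 2 rose, GAR1 (0.19 ± 0.04, FDR = 0.0082) and CBF5 (0.17 ± 0.03, FDR = 0.00677), which encode proteins of the same box H/ACA particle that makes pseudouridine in rRNA. This share was 1.44%, against 2.08% of all genes, and both calls were lost in 7 of the 8 fits that left out a pair and with fragment length as a covariate. Of 64 mitochondrial ribosomal protein genes, 0 passed the test in the 16 libraries.

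HTB2, which encodes histone H2B, was at 162 to 224 CPM in T1 (median 197) and 203 to 261 in T2 (median 234), and its log2 fold change was 0.25 ± 0.04 (FDR = 0.00276). It was the 1 histone gene of 8 to pass (12.5% called, against 2.08% of all genes), and the list median was 0.20. It did not pass without the 130 µL/s pair of culture 1 or the 210 or 290 µL/s pair of culture 2. HTB1 encodes nearly the same protein, so the division of reads between the copies is uncertain. TOS4, a transcription factor expressed at the start of the cell cycle, rose by 0.18 ± 0.03 (FDR = 0.00635), the 1 call among 37 cell cycle genes, and was lost in 7 of the 8 fits that left out a pair. That share, 2.7%, is near the 2.08% of all genes, so the call does not describe the list.

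Several single genes that act at the cell surface were among the rises. MCD4, which adds ethanolamine phosphate to glycosylphosphatidylinositol (GPI) anchors, was at 129 to 175 CPM in T1 and 156 to 198 in T2 (0.25 ± 0.03, FDR = 0.000987). Among 58 cell wall genes, with a list median of 0.03 and 38 genes above 0, 3 rose, namely ECM33, a GPI-anchored wall protein (0.21 ± 0.04, FDR = 0.00589), GAS1, the glucan-remodelling enzyme (0.17 ± 0.03, FDR = 0.00592), and CIS3, a mannoprotein of the PIR family (0.16 ± 0.02, FDR = 0.00209). SPI1 was the 1 wall gene that fell, which makes 6.9% called, against 2.08% of all genes. The 3 rises became 0 without the 130 µL/s pair of culture 1 or the 210 µL/s pair of culture 2, 2 without the 290 µL/s pair of culture 1, and 1 without each of 4 other pairs. CIS3 was at 601 to 691 CPM in T1 and 694 to 754 in T2, with no overlap. IZH2 and IZH4, membrane proteins linked to zinc, rose by 0.24 ± 0.04 and 0.24 ± 0.05 (FDR = 0.00663 and 0.0083), and were lost in 5 and 7 of the 8 fits that left out a pair.

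Single genes of metabolism were among the other rises. In purine synthesis, 2 of 28 genes rose (7.14%, against 2.08% of all genes), IMD4, an IMP dehydrogenase (0.21 ± 0.04, FDR = 0.00886), and ADE2, phosphoribosylaminoimidazole carboxylase (0.16 ± 0.03, FDR = 0.00599), which is mutated in W303. In amino acid synthesis, 2 of 63 rose, a share of 3.17% against 2.08%, namely LEU9 for leucine (0.18 ± 0.03, FDR = 0.00635) and ILV3 for branched-chain amino acids (0.13 ± 0.03, FDR = 0.00961). Each of these 4 calls was lost in 7 of the 8 fits that left out a pair. GIT1, a transporter of glycerophosphoinositol (0.22 ± 0.04, FDR = 0.00546), was the 1 of 22 phosphate genes called (4.55%, against 2.08% of all genes), and was lost in 5 of those fits. In the sulfur amino acid list, 1 of 34 genes fell, MET10, a subunit of sulfite reductase (−0.25 ± 0.05, FDR = 0.0083), which fell in 7 pairs and was lost in 7 of those fits. This share, 2.94%, is near the 2.08% of all genes, so MET10 does not describe its list. Of the 42 gene lists, 20 had no gene called, among them the proteasome (33 genes), mRNA splicing (49 genes) and DNA replication (57 genes), with medians of 0.00, 0.00 and 0.04.

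The largest changes from T1 to T2 ran in opposite directions in the 2 cultures. When the change in culture 2 was tested against the change in culture 1 (edgeR interaction term, 16 libraries), 180 genes differed at FDR below 0.01, which is 3.5% of the genes tested. In 150 of them the change was higher in culture 2 (2.92%) and in 30 it was lower (0.583%), and 1165 genes had an unadjusted p below 0.05. For 175 of the 180 genes the change was of opposite sign in the cultures. For 128 of them all 4 pairs of one culture moved against all 4 of the other. The test chose these genes on the same pairs, which favours both counts. The median absolute difference was 0.57 and the largest 3.23 on the log2 scale. No gene was called by this test and by the test over both cultures. The latter had no term for the cultures, so a difference between them counted as spread and made a call less likely. The 2 sets were thus kept apart by the models. With that term in the model, 314 genes were called over both cultures. The count was 109 without the 50 µL/s pair of culture 2 and 117 without the 210 µL/s pair of that culture.

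**Figure D3:**
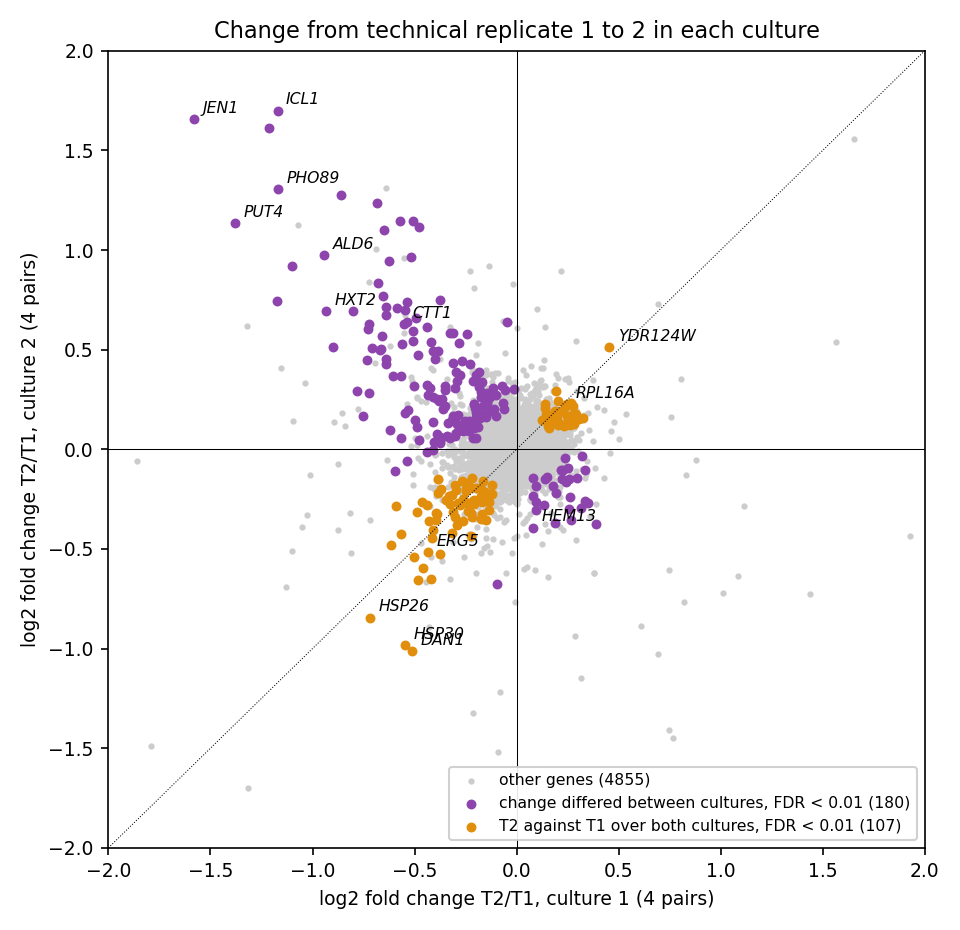
Log2 fold change from T1 to T2 in culture 1 (horizontal axis) and culture 2 (vertical axis), with a point for each gene and a dotted line of equal change; 3 genes lie outside the axes. The 107 genes called over both cultures lie near the line, a place which that test favours. The 180 genes whose change differed lie mostly at the upper left, with JEN1 at −1.58 and 1.66.

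Genes that glucose represses had the largest share called of the 42 lists. JEN1, the lactate and pyruvate transporter, had the lowest p of all genes. In culture 1 it was at 99.0, 99.1, 112 and 136 CPM in the T1 libraries at 50, 130, 210 and 290 µL/s and at 28.4, 37.3, 40.8 and 43.0 CPM in T2. In culture 2 it was at 62.0, 62.4, 72.8 and 63.5 CPM in T1 and at 232, 186, 248 and 160 CPM in T2. The groups did not overlap in either culture. The log2 fold change was −1.58 ± 0.07 in culture 1 and 1.66 ± 0.06 in culture 2, a difference of 3.23 ± 0.11 (FDR = 1.64e-11).

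ICL1, isocitrate lyase of the glyoxylate cycle, was at 84.1, 73.3, 82.9 and 101 CPM in T1 of culture 1 and at 26.7, 41.8, 47.6 and 36.4 CPM in T2, in the same order of speeds. In culture 2 it was at 59.4, 58.2, 70.1 and 55.01 CPM in T1 and at 241, 177, 231 and 145 CPM in T2. The fall in culture 1 and the rise in culture 2 were again seen at every speed, with a difference of 2.87 ± 0.16 (FDR = 8.4e-09). ALD6, the cytosolic aldehyde dehydrogenase that makes acetate, changed by −0.94 in culture 1 and 0.97 in culture 2 (difference 1.92 ± 0.10, FDR = 3.87e-09). CYB2, the mitochondrial lactate dehydrogenase, changed by −0.73 and 0.61 (difference 1.33 ± 0.09, FDR = 1.11e-07). YGR067C, a putative zinc finger protein, had the third lowest p and changed by −1.21 and 1.61 (difference 2.82 ± 0.14, FDR = 1.94e-09).

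**Figure D4:**
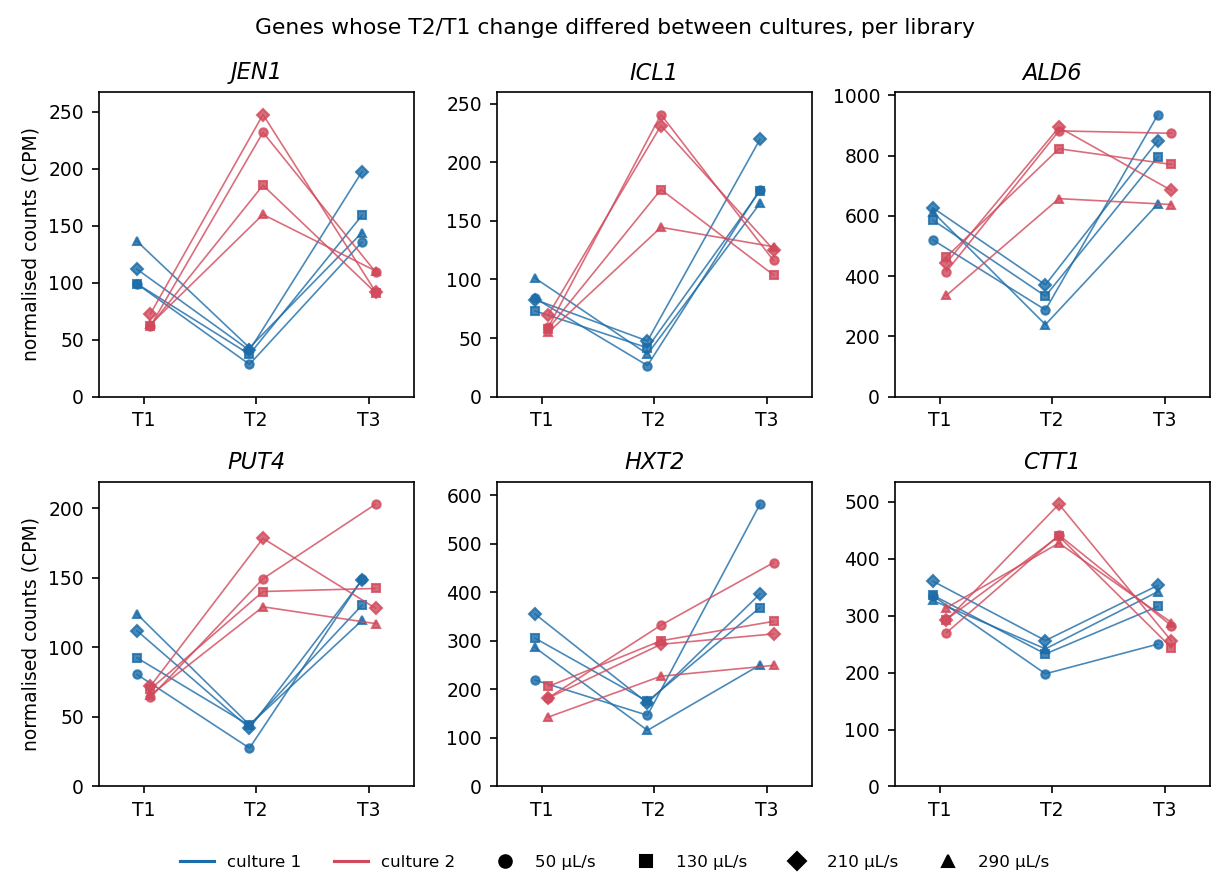
Normalised counts (CPM) of 6 genes in all libraries of T1, T2 and T3, with a line for each culture and speed; colour gives the culture and marker shape the pipetting speed. From T1 to T2 each gene falls at all 4 speeds in culture 1 and rises at all 4 in culture 2, JEN1 to between 28.4 and 43.0 CPM in culture 1 and to between 160 and 248 CPM in culture 2.

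Of 29 glucose-repressed and gluconeogenic genes tested, 24 differed between the cultures and all 24 had the higher change in culture 2 (82.8% called, against 3.5% of all genes). Within culture 1, 16 of the 29 fell and 0 rose (55.2% called, against 2.66% of all genes), with a list median of −0.55. Within culture 2, 22 rose and 2 fell (82.8% called, against 10.4% of all genes), with a list median of 0.69. The 2 that fell in culture 2 were the hexose kinase genes GLK1 and HXK1, which act in glucose use, and GLK1 was also the 1 member of the list called over both cultures. Over both cultures the list median was 0.02. The members that differed included the activators CAT8 and ADR1, the gluconeogenic enzymes FBP1 and PCK1, the malate synthase MLS1, the acetyl-CoA synthetase ACS1, ADH2 and the transporter ADY2, all named here as counted members after their values were seen.

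**Figure D5:**
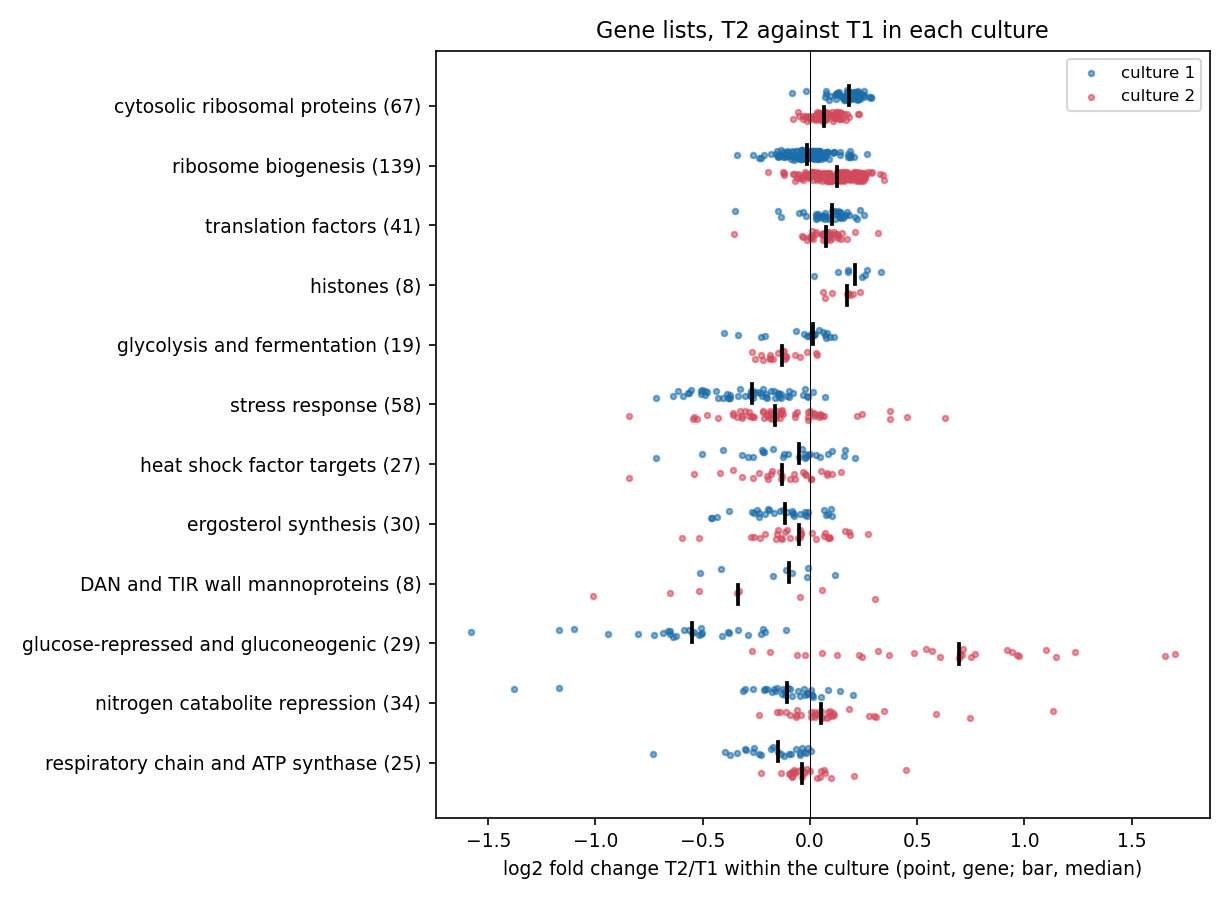
Log2 fold change from T1 to T2 of the members of 12 gene lists, in culture 1 and in culture 2, with the number of genes tested in brackets; each point is a gene and each black bar the median of the list. Glucose-repressed genes have medians of −0.55 and 0.69, stress response genes −0.27 and −0.16, and ribosomal protein genes 0.18 and 0.07.

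Genes for the use of poor nitrogen sources differed in the same direction. PUT4, the proline permease, had the second lowest p. In culture 1 it was at 80.6, 92.5, 112 and 124 CPM in T1 at 50, 130, 210 and 290 µL/s and at 27.6, 43.8, 41.9 and 44.2 CPM in T2. In culture 2 it was at 64.0, 70.0, 72.1 and 65.8 CPM in T1 and at 149, 140, 178 and 129 CPM in T2. The groups did not overlap in either culture, and the difference in log2 fold change was 2.51 ± 0.10 (FDR = 7.45e-11). PUT1, proline oxidase, changed by −1.17 in culture 1 and 0.75 in culture 2 (difference 1.92 ± 0.13, FDR = 5.41e-08), and GDH2, which releases ammonium from glutamate, changed by −0.31 and 0.59 (difference 0.90 ± 0.06, FDR = 4.4e-08). AGP1, a broad amino acid permease, changed by −0.22 and 0.34 (difference 0.56 ± 0.05, FDR = 2.99e-06).

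Of 34 genes under nitrogen catabolite repression, 8 differed, all higher in culture 2 (23.5%, against 3.5% of all genes), and 0 were called over both cultures. The list medians were −0.11 in culture 1 and 0.05 in culture 2. Among 19 amino acid permease genes 3 differed (15.8%, against 3.5%), AGP1, DIP5 for acidic amino acids (difference 0.66 ± 0.06, FDR = 1.13e-06) and AGP3 (0.82 ± 0.11, FDR = 0.0002).

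Single transporter and respiratory genes were also among those that differed. HXT2, a high-affinity glucose transporter, was at 219, 305, 355 and 286 CPM in T1 of culture 1 and 147, 175, 172 and 116 CPM in T2, at 50, 130, 210 and 290 µL/s. In culture 2 it was at 183, 206, 182 and 143 CPM in T1 and 332, 300, 293 and 227 CPM in T2. It fell in every pair of culture 1 and rose in every pair of culture 2 (difference 1.63 ± 0.11, FDR = 1.05e-07). HXT5, a transporter of slowly growing cells, was the other of 11 hexose transporter genes that differed (0.86 ± 0.14, FDR = 0.000874; 18.2%, against 3.5% of all genes). In the citric acid cycle list, CIT2, the peroxisomal citrate synthase (1.15 ± 0.10, FDR = 7.5e-07), and IDP2, the cytosolic isocitrate dehydrogenase (0.69 ± 0.12, FDR = 0.00117), were the 2 of 25 genes that differed, a share of 8.0%.

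Of 25 respiratory chain and ATP synthase genes, 3 differed (12%, against 3.5% of all genes), NDE2 and NDI1, which pass electrons from NADH (1.18 ± 0.15 and 0.37 ± 0.07, FDR = 8.25e-05 and 0.00291), and CYC7, the cytochrome c isoform favoured at low oxygen (0.44 ± 0.06, FDR = 0.000143). Of 40 peroxisome and fatty acid oxidation genes 3 differed (7.5%), PXA1, POT1 and FOX2, by 0.57, 1.28 and 0.44 (FDR = 0.000699, 0.000268 and 0.00417). Among 27 iron uptake genes, 4 differed (14.8%), with FET3, the iron oxidase, at 1.05 ± 0.13 (FDR = 7.63e-05), HMX1, the heme oxygenase, at 1.01 ± 0.12 (FDR = 5.51e-05), CCC2, the copper pump of the same route, at 0.71 ± 0.10 (FDR = 0.000158), and MRS4, a mitochondrial iron carrier, at 0.38 ± 0.07 (FDR = 0.00406). NDI1, FOX2 and MRS4 were lost in 3, 5 and 6 of the 8 fits that left out a pair. PHO89, the sodium-phosphate cotransporter, differed by 2.47 ± 0.25 (FDR = 5.3e-06), from low levels of 4.04 to 11.2 CPM in T1. SUL1, a sulfate permease at 3.90 to 7.35 CPM in T1, differed by 1.60 ± 0.22 (FDR = 0.000207).

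A few stress genes did not follow the common fall. CTT1, the cytosolic catalase, was at 335, 336, 361 and 327 CPM in T1 of culture 1 and 198, 233, 256 and 242 CPM in T2, at 50, 130, 210 and 290 µL/s. In culture 2 it was at 270, 293, 292 and 314 CPM in T1 and 442, 440, 496 and 428 CPM in T2. The log2 fold changes of CTT1 were −0.55 and 0.63 (difference 1.18 ± 0.08, FDR = 4.4e-08), whereas HSP12, on the same list, changed by −0.43 and −0.36 (difference 0.07 ± 0.07, FDR = 0.586). Of the 58 stress response genes, 7 had a higher change in culture 2 and 0 a lower one (12.1% called, against 3.5% of all genes). Among the 7 were XBP1, a stress-induced repressor (0.57 ± 0.08, FDR = 0.000149), and SPG4, a stationary phase gene (1.09 ± 0.17, FDR = 0.00056). Within culture 1, the list gave 23 falls and 0 rises (39.7% called, against 2.66% of all genes). Within culture 2, it gave 29 falls and 3 rises (55.2% called, against 10.4% of all genes).

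Cyclin and cell separation genes were among the 30 with a lower change in culture 2. CLB2, the mitotic cyclin, changed by 0.24 in culture 1 and −0.17 in culture 2 (difference −0.41 ± 0.06, FDR = 0.000624). PCL1, a G1 cyclin (−0.62 ± 0.10, FDR = 0.000709), and YOX1, a repressor of genes of the M/G1 boundary (−0.55 ± 0.11, FDR = 0.00417), were the other 2 of the 37 cell cycle genes that differed (8.11% called, against 3.5% of all genes). DSE4, the daughter-cell glucanase that separates cells (−0.41 ± 0.06, FDR = 0.000125), EXG1, an exoglucanase (−0.36 ± 0.06, FDR = 0.000866), and UTR2, a chitin transglycosylase (−0.28 ± 0.05, FDR = 0.00297), all act on the cell wall, and the wall protein CWP1 went the other way (0.32 ± 0.06, FDR = 0.00409). Of 58 cell wall genes, 3 had a lower change in culture 2 and 1 a higher one (6.9% called, against 3.5% of all genes). HEM13, the oxygen-requiring step of heme synthesis, changed by 0.08 in culture 1 and −0.39 in culture 2 (difference −0.47 ± 0.09, FDR = 0.00373). AAC3, the hypoxic mitochondrial ADP/ATP carrier, changed by 0.19 and −0.37 (difference −0.56 ± 0.08, FDR = 0.000211). YOX1, UTR2 and HEM13 were each lost in 4 of the 8 fits that left out a pair, and CWP1 in 5.

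When each culture was tested on its own (8 libraries), 137 genes were called in culture 1, 14 higher and 123 lower in T2 (2.66% of all genes, 0.272% and 2.39%). In culture 2, 536 genes were called, 283 higher and 253 lower (10.4%, 5.5% and 4.92%). With total counts in place of TMM, culture 2 gave 423 higher and 140 lower. The 73 genes called in both cultures were 53.3% of the calls of culture 1 and 13.6% of those of culture 2. Of these, 28 fell in both cultures, 3 rose in both, 40 fell in culture 1 and rose in culture 2, and 2 did the reverse. These counts moved with single pairs, to 54 in culture 1 without its 130 µL/s pair and to 212 in culture 2 without its 210 µL/s pair, 339 without its 50 µL/s pair and 343 without its 130 µL/s pair. Calls in one culture and not in the other are not differences between them, which only the interaction term tested.

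Ribosome biogenesis genes rose in culture 2, with 41 of 139 higher and 0 lower (29.5% called, against 10.4% of all genes) and a list median of 0.13, and had 0 calls and a median of −0.02 in culture 1. The interaction passed for 2 of the 139, DBP10 and MPP10 (0.34 ± 0.07 and 0.32 ± 0.07, FDR = 0.00755 and 0.00674), which act in assembly of the large and the small subunit. That share was 1.44%, below the 3.5% of all genes, so the list as a whole was not shown to differ between the cultures. DBP10 and MPP10 were lost in 7 and 5 of the 8 fits that left out a pair. In culture 2 the members with the lowest p were NOP7 (0.35, FDR = 3.21e-06), DBP3 (0.24, FDR = 0.000101), DBP9 (0.26, FDR = 0.00016) and NOP56 (0.29, FDR = 0.00016). Mitochondrial ribosomal protein genes gave 14 rises of 64 in culture 2 (21.9% called, against 10.4% of all genes) and 0 calls in culture 1. The interaction passed for 1 of these 64 (1.56%, against 3.5% of all genes). Of 19 glycolysis and fermentation genes, 9 fell and 0 rose in culture 2 (47.4% called, against 10.4% of all genes). Among the 9 were ENO1, enolase (−0.23, FDR = 0.000272), and PGK1, phosphoglycerate kinase (−0.22, FDR = 0.000354). Culture 1 had 0 calls on this list, and no member differed between the cultures. In the sulfur amino acid list, 9 of 34 fell and 3 rose in culture 2 (35.3% called, against 10.4% of all genes). MET3, ATP sulfurylase, was at −0.45 (FDR = 5.73e-06) and MET14, APS kinase, at −0.36 (FDR = 5.8e-05). Cytosolic ribosomal protein genes had 8 rises of 67 in culture 2, a share of 11.9% that is near the 10.4% of all genes. They had 0 calls in culture 1, though their median was 0.18 in culture 1 and 0.07 in culture 2.

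Whether the change from T1 to T2 depended on pipetting speed was tested with the interaction of technical replicate and speed. No gene passed an FDR of 0.01 by edgeR's quasi-likelihood test, DESeq2, limma-voom or edgeR's likelihood ratio test, and 21 genes had an unadjusted p below 0.05 by the first. With the difference between cultures also in the model, 84 genes had an unadjusted p below 0.05 and 0 passed. The 3 genes with the lowest p were TIR4, EFM1, a lysine methyltransferase of elongation factor 1α, and YHL005C, each at FDR = 1. TIR4 changed by −0.72, −0.69, −0.12 and −0.15 at 50, 130, 210 and 290 µL/s in culture 1 and by −0.88, −0.76, −0.63 and −0.33 in culture 2. YHL005C was at 0 to 0.51 CPM in T2. Each speed had 1 pair per culture, which limits what this test can detect.

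Upstream regions were searched for the letters bound by regulators of these genes, as a description and without a test. The 500 bases before the annotated start were read from the R64 reference, whose strain is not W303, for 5110 of the genes tested, on both strands, and none of the motifs named contains another. The stress element STRE (AGGGG) was found before 50 of the 70 genes that fell (71.4%), 9 of the 36 that rose and had such a window (25.0%) and 34.2% of all genes. The heat shock element was found before 5 of those that fell (7.14%) and 0 that rose, against 1.39% of all genes. The Rox1 motif (ATTGTTC) of hypoxic genes stood before 17.1% of those that fell and 11.9% of all. The RRPE motif of ribosome biogenesis genes stood before 13.9% of those that rose and 5.48% of all. Before the 150 genes with a higher change in culture 2, STRE was found for 60.0%, Mig1 (CCCCAG) for 21 genes against 7.1% of all, and Aft1 (GCACCC) for 14.7% against 7.42% of all. The other motifs named were within 7 percentage points of the share of all genes in each of these groups, namely PAC (GATGAG), Gcn4 (TGACTC), Rpn4, Hap2/3/4/5 (CCAAT), MCB (ACGCGT) and Pho4 (CACGTG).

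Technical replicate 3 (T3) is given side by side, since its comparison with T1 shares the T1 libraries. HSP26 was at 94.4 to 210 CPM in T3, below the 230 to 439 CPM of T2. DAN1 was at 14.9 to 55.6 CPM in T3, HSP12 at 142 to 197 CPM, and RPL16A at 670 to 934 CPM. ERG5 in T3 was at 199 to 317 CPM in culture 1 and 459 to 914 CPM in culture 2, so the cultures did not overlap there. JEN1 in T3 was at 136 to 198 CPM in culture 1 and 91.3 to 110 CPM in culture 2, the reverse of their order in T2. CTT1 was at 250 to 354 CPM in culture 1 and 244 to 288 CPM in culture 2.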

How the data were processed

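Of the 24 libraries, the 16 of T1 and T2 were analysed, and T3 only side by side. The authors trimmed 36 nt paired-end reads of poly(A) RNA with fastp 0.23.2, aligned them to the W303 genome with STAR 2.7.10a and made strand-aware estimates per gene with RSEM. The expected counts that the authors deposited were not normalised, and 23.8% are not whole. The deposited TPM were normalised by the authors for length and library. A deposited table of the whole series was not used. Counts were rounded, and 51 of 5193 genes, whose count averaged at most 1, were left out, which kept 5142 with a median average count of 971.

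Tests used edgeR 4.0.16 in R 4.3.3 (TMM, glmQLFit, glmQLFTest) with pair and technical replicate as terms, calls at a Benjamini-Hochberg FDR below 0.01. Interactions with culture and speed were added terms, and each culture was fitted alone with speed. Pairing came from the labels. Deviations of libraries of the same pair correlated at between −0.135 and 0.24, above 0.1 in 1 pair only. No 2 libraries agreed within counting noise (lowest chi-square per degree of freedom 2.62). On simulated data with the 5142 genes, 72 of 100 genes changed by 0.25 and 49 of 50 changed by 0.585 on the log2 scale were recovered in the comparison of T2 with T1. The changed genes were drawn from those with a mean count of at least 50, so recovery at lower counts was not tested. No difference among pairs, speeds or cultures was simulated. Alternatives used edgeR's likelihood ratio test, limma-voom (limma 3.58.1), DESeq2 1.42.0, other normalisations and filters, fragment length, GC content and length, models without the pair, and each pair left out. Library measures were tested in Python 3.11.15 with SciPy 1.17.1 over the 256 sign flips of 8 pairs.

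The members, the 42 gene lists and the rules were chosen with earlier results of these data known, so list counts are descriptions. Genes were named if among the 12 largest changes in each direction with the same sign in 8 pairs and a mean CPM of at least 10, the 5 lowest p in each direction, the 4 lowest p of a list described, or the 3 lowest p of an interaction; other names were chosen after their values were seen. Within a culture, list members with the lowest p were named likewise. Symbols came from the R64 annotation, which matched 5151 of 5193 genes by systematic name. GC content (known for 99.4% of the genes tested) and the upstream windows were read from R64 by its own coordinates.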

Additional observations from a re-analysis of the deposited data

Results flagged for a closer look

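Differences between the cultures were tested by the interaction term, and 180 genes passed an FDR of 0.01. The change in culture 2 minus that in culture 1, on the log2 scale, was 3.23 for JEN1, 2.51 for PUT4, 2.82 for YGR067C, 1.92 for ALD6, 2.87 for ICL1, 1.33 for CYB2, 1.63 for HXT2, 0.86 for HXT5, 1.15 for CIT2 and 0.69 for IDP2. It was 0.90 for GDH2, 1.92 for PUT1 and 0.56 for AGP1 of nitrogen use, and 1.18 for CTT1, 0.44 for CYC7, 0.57 for XBP1 and 1.09 for SPG4 of the stress response. Among respiratory and iron genes it was 1.18 for NDE2, 0.37 for NDI1, 1.01 for HMX1, 1.05 for FET3, 0.71 for CCC2 and 0.38 for MRS4. It was below 0 for DSE4 (−0.41), AAC3 (−0.56), CLB2 (−0.41), PCL1 (−0.62), EXG1 (−0.36), UTR2 (−0.28), HEM13 (−0.47) and YOX1 (−0.55), and above 0 for CWP1 (0.32). Each culture was grown once, so what differed between the cultures cannot be told apart from what differed between their T1 and T2 samplings.

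Of 74 groups of 8 libraries examined, 4 had a library far from the other 7, and chance gives about 1 in 20. In T1, the 290 µL/s library of culture 2 had a ribosomal protein share of 5.48% and levels of 504 CPM for RPL16A and 751 CPM for RPL17A, the lowest of the T1 libraries. The 50 µL/s library of culture 2 had the highest IZH4 level of T1, 269 CPM.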

How the results depend on the processing

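The number of genes changed over both cultures, 107, was 223 with no replicate block and additive terms, 67 with technical replicate alone, 314 with the difference between cultures in the blocked model (chosen after seeing the data), 256 by DESeq2, 277 by the likelihood ratio test, 68 with fragment length as a covariate, 428 at FDR below 0.05, 3 at 1.5-fold, and 42 to 164 with a pair left out. Libraries of a pair deviated together by more than 0.1 in 1 of 8 pairs, the 290 µL/s pair of culture 2 (r = 0.24), so the block rests on the labels. The 180 genes that differed between cultures were 422 at FDR below 0.05, 324 by the likelihood ratio test and 109 to 201 with a pair left out; their split of 150 higher and 30 lower was 143 and 81 with the GC and length offset. Culture 1 (137 genes) gave 393 at FDR below 0.05, 208 by DESeq2, 355 by the likelihood ratio test and 54 to 143 with a pair left out, and culture 2 (536 genes) gave 1036, 284 by DESeq2 and 212 to 569 with a pair left out. These within-culture alternatives were chosen after seeing the data. The ribosomal protein share rose by 0.467 to 0.637 points with a pair left out. The causes were not tested. In the refits run for single genes at an FDR of 0.01 with no minimum fold, 0 of the named genes reversed. These genes were named for their values in the same libraries, which favours an unchanged sign. Of 55 named for the test over both cultures, 12 passed in every such refit, and of 57 named for the difference, 37 did. ERG5, CYB5, ERG1, ERG8, ANB1, DAN1 and TIR4 did not pass with all 24 libraries in the fit. At this depth and number of pairs, standard errors over all genes had a median of 0.041 on the log2 scale.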
